A study of Mus musculus with 18 samples.

Results

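The oxidative phosphorylation genes are 94 protein-coding mouse genes whose products make up respiratory complexes I to IV and the ATP synthase, complex V. They were taken by symbol (Nduf, Sdh, Uqcr, Cox4 to Cox8, Atp5 and the 13 protein genes of mitochondrial DNA), with a level of at least 1 TPM in at least 2 of 18 libraries. TPM is the read count divided by transcript length and then scaled so that each library sums to 1000000. Of 97 protein-coding genes with such a symbol, 3 stayed below that level: Cox6a2 reached at most 2.22 TPM, Cox8c 0.287 TPM and Cox7b2 0.0400 TPM. The 94 members, 81 nuclear and 13 mitochondrial, stand among 20463 genes tested and 47729 gene identifiers listed. By complex, the nuclear members number 37 for complex I, 4 for II, 8 for III, 15 for IV and 17 for V, and the mitochondrial ones 7, 0, 1, 3 and 2. The rule uses symbols and this level, not differences between groups, and it was written with earlier results of these data known.

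Cochlear RNA was sequenced in 9 groups of 2 replicate libraries. The 2 sorted culture groups were LCP cultures sorted at D10 and at D0 of differentiation. The abbreviation is taken to mean progenitors of the cochlea that carry Lgr5, expanded in culture and then differentiated, and neither the marker used for this sort nor a reporter allele is given in the sources used here. The 4 unsorted culture groups were LCP D0, D2, D4 and D10. The 3 native groups were cells sorted from the sensory epithelium at postnatal day 2 under the names Atoh1 (a hair cell transcription factor), Lgr5 and Sox2 (both supporting cell genes). The labels state no strain, genotype or transgene for any group. Per the labels each sample came from both ears of 1 pup, the origin of the culture replicates is not stated apart from that, and p-values therefore measure the spread between these libraries, which may be technical.

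A few facts bear on all values. Read depth is unknown, because TPM keeps none. The replicates correlated at 0.903 to 0.945 over all genes tested, and none of 12 housekeeping genes was listed at 0. Summed over 13 hair cell markers, sorted LCP D10 reached 7801 and 6044 TPM and sorted LCP D0 34.8 and 28.3 TPM. The Atoh1 sort reached 2146 and 2796 TPM, the Lgr5 sort 876 and 1508 TPM and the Sox2 sort 1349 and 1482 TPM, so the native supporting cell sorts also held hair cell transcripts. The replicates of unsorted LCP D4 (368 and 1554 TPM) and LCP D10 (1077 and 3709.5 TPM) stood apart from each other in this sum. In bulk RNA, fewer cells of a type and less RNA per cell cannot be told apart.

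Oxidative phosphorylation passes electrons from NADH and succinate through complexes I to IV to oxygen, and complex V uses the proton gradient so built to make ATP. Complexes I, III, IV and V are assembled from subunits of 2 genomes: nuclear subunits are translated in the cytosol and imported, and mitochondrial subunits are transcribed and translated inside the organelle. All subunits of complex II are nuclear. Hair cells depend on mitochondria for ion transport and calcium handling, and several complex IV subunits exist as isoforms with a tissue-restricted distribution.

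The 94 members together took 5.39 to 9.68% of a library's TPM. The mitochondrial members summed to 28175 to 63979 TPM, against 17761 to 39986 TPM for the 81 nuclear members, but the order turns on 1 gene: without mt-Atp8 the mitochondrial sum was 12762 to 30796 TPM, and its ratio to the nuclear sum was 0.449 to 1.06, with a median of 0.735. mt-Atp8, which encodes a short membrane subunit of ATP synthase, had the highest mean of the mitochondrial genes (25364 TPM over 18 libraries) and supplied 51.4 to 61.0% of their sum. mt-Atp6 lies on the same bicistronic mRNA and averaged 4984 TPM, and mt-Atp8 is a very short gene, so its TPM rests on few positions. mt-Co3, a core subunit of complex IV, followed with 5128 TPM, and the lowest means were those of mt-Nd2 (405 TPM) and mt-Nd5 (344 TPM), both membrane subunits of complex I.

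Among nuclear members the mean over 18 libraries ran from 0.872 TPM (Cox8b) to 3297 TPM (Atp5j), with a median of 229.9 TPM. 66 of the 81 averaged at least 100 TPM. In complex I the highest were Ndufc1 (894 TPM), an accessory membrane-arm subunit, and Ndufa4 (745 TPM), a protein named for complex I that is now placed with complex IV. In complex II they were Sdha (763 TPM), the flavoprotein, and Sdhc (229 TPM), a membrane anchor. Complex III was led by the small subunits Uqcrq (486 TPM) and Uqcr11 (479 TPM), complex IV by Cox6b1 (1476 TPM) and Cox4i1 (917 TPM), and complex V by Atp5j (3297 TPM), coupling factor F6, and Atp5b (1848 TPM), the catalytic beta subunit. Levels of a member and of a near-identical copy are uncertain: Cox6c held 14.6 to 16.7% of the TPM that it shared with Cox6c2, annotated as a pseudogene, and Ndufb4 held 10.9 to 15.1% of that shared with Ndufb4c. Cox6c and Cox6c2 together had 1340 to 4184 TPM in a library, so the order within complex IV depends on how their reads were assigned. Cox6c2 is not counted in the nuclear sum. Exons of 26 nuclear members overlap another listed gene, 24 of them on the opposite strand, and the library kits named in the labels do not mark the strand.

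As a mean of 2 libraries, the ratio of the mitochondrial to the nuclear sum was lowest in unsorted LCP D0, although the lowest single library was replicate 2 of sorted LCP D0 (1.06). In unsorted LCP D0 it was 1.10 and 1.09. It was 1.71 and 1.76 at D2, 2.46 and 1.71 at D4, and 1.88 and 1.62 at D10, so no library of a later day overlapped D0. Of the 2 sums, the nuclear one was 25702 and 37151 TPM at D0, 20149 and 27726 TPM at D2, 17761 and 27949.9 TPM at D4 and 25903 and 26914 TPM at D10, with overlapping replicates on every later day. The mitochondrial sum was 28175 and 40344 TPM at D0, 34536 and 48812 TPM at D2, 43609 and 47825 TPM at D4 and 48604 and 43703 TPM at D10. At D4 and D10 both libraries lay above both D0 libraries, and at D2 the replicates overlapped those of D0.

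Without mt-Atp8, whose short length weighs on the sum, the ratio was lower everywhere but kept this order against D0. It was 0.497 and 0.449 at D0, 0.780 and 0.770 at D2, 1.06 and 0.777 at D4, and 0.732 and 0.745 at D10. As group means, the fold over D0 was 1.59 at D2, 1.91 at D4 and 1.60 at D10 with mt-Atp8, and 1.64, 1.94 and 1.56 without it. With 2 libraries a group the smallest 2-sided p that an exact permutation test allows is 0.333, so the ratio was not tested.

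In sorted cultures the ratio did not separate the days. It was 1.56 and 1.62 in sorted LCP D10 and 1.71 and 1.06 in sorted LCP D0, where the first replicate lay above and the second below both D10 values. Among native cells it was 1.63 and 1.22 in the Atoh1 sort, 1.30 and 1.11 in the Lgr5 sort and 1.62 and 1.95 in the Sox2 sort.

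**Figure D1:**
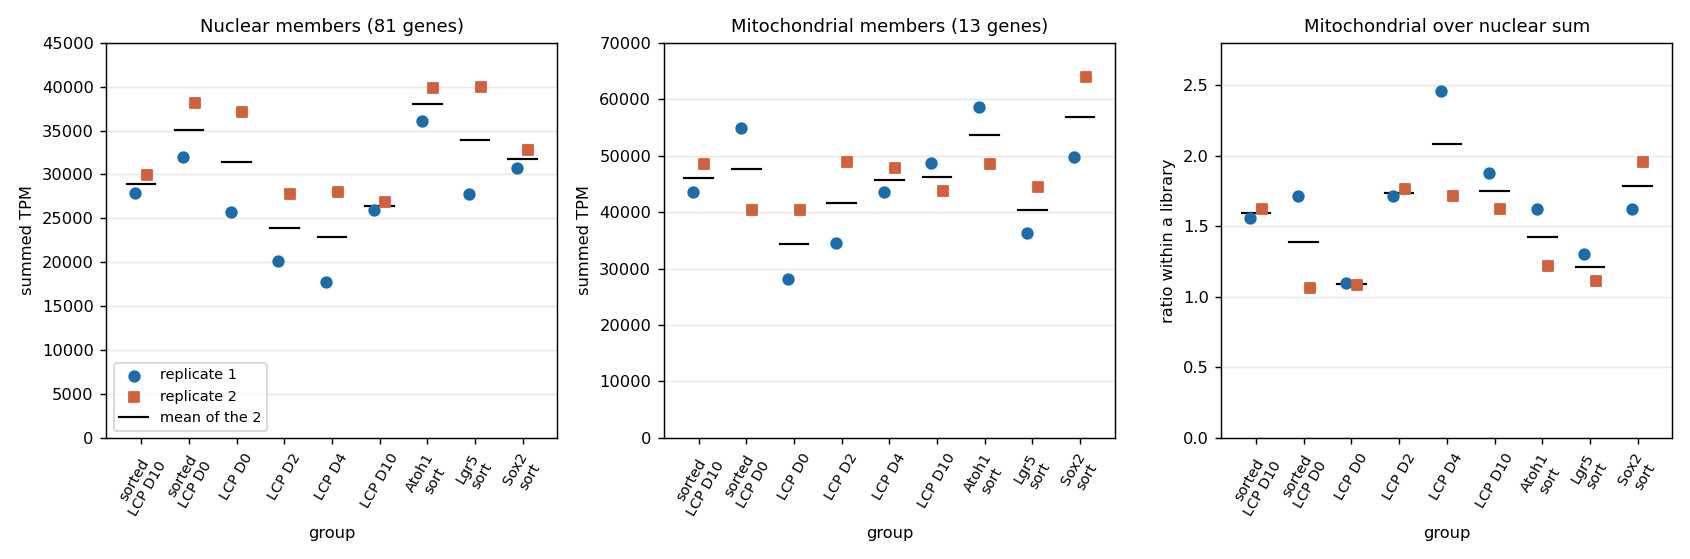
Summed TPM of the 81 nuclear members (left), the 13 mitochondrial members (middle) and the ratio of the 2 sums (right) in each library. Circles and squares are replicates 1 and 2 and lines are the mean of the 2. The ratio is 1.10 and 1.09 in unsorted LCP D0 and between 1.62 and 2.46 in the 6 unsorted libraries of later days.

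**Figure D2:**
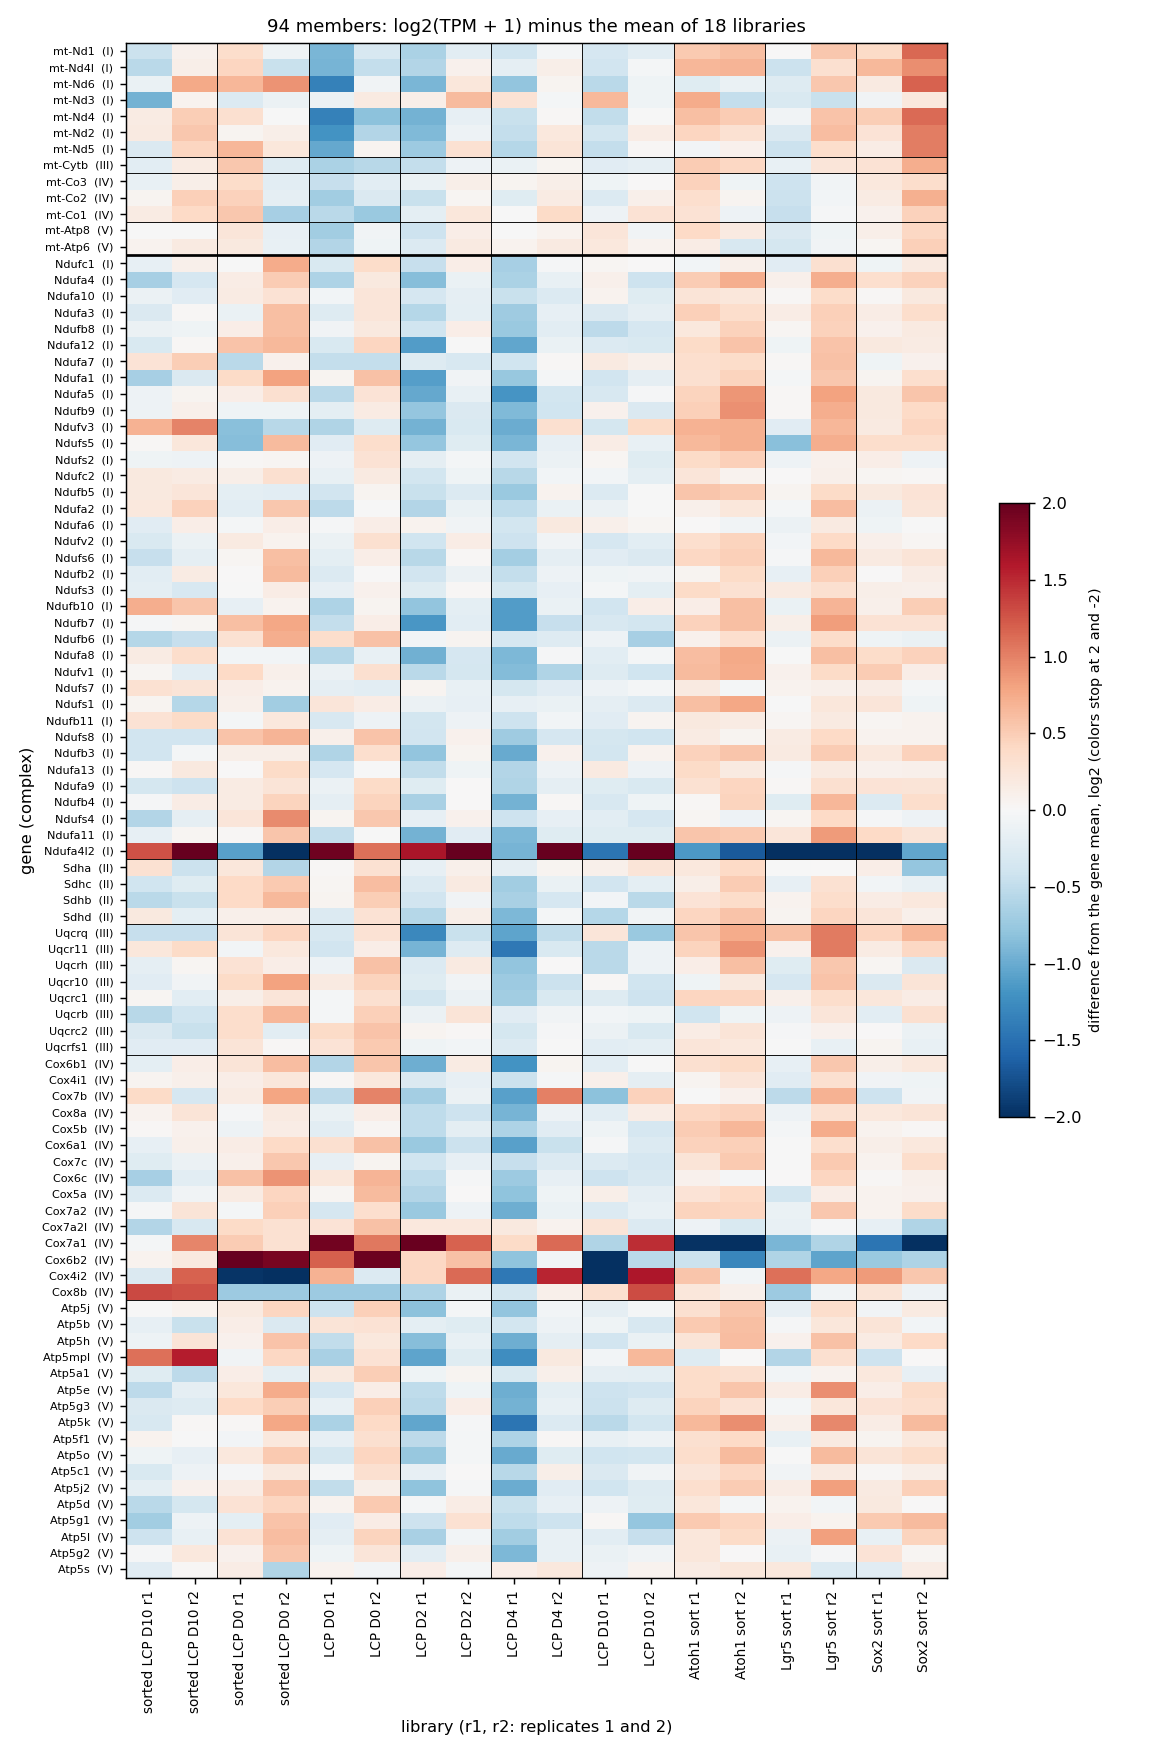
Level of each member, as log2(TPM + 1) minus its mean over the 18 libraries, with mitochondrial genes above the thick line, nuclear genes below it, and thin lines between complexes. Most nuclear rows move together within a library (replicate 1 of LCP D4 is low almost throughout), while Ndufa4l2, Cox7a1, Cox6b2, Cox4i2 and Cox8b vary on their own.

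Unsorted cultures were compared with D0 at each later day, in limma's moderated test on log2(TPM + 1) over all 20463 genes with Benjamini-Hochberg adjustment and a threshold of 0.05. At D2 no member passed (0 of 94, with a smallest adjusted p of 0.304), where 0.0489% of all genes did. 8 members had an unadjusted p under 0.05, where 921 of the 20463 genes did. The 2 genomes leaned opposite ways: 74 of 81 nuclear members had a negative difference with a median of -0.34, all 13 mitochondrial members a positive one with a median of 0.33, and the median of all genes tested was -0.02. The D2 libraries lay below both D0 libraries for 24 nuclear members, 29.6% of them where 18.5% of all genes did so, and above both for 3 mitochondrial members, where 10.7% did. The comparisons with D0 on all later days share the D0 libraries. By replicate number, D2 gave nuclear medians of -0.31 and -0.37 and mitochondrial medians of 0.30 and 0.33. The medians moved widely with single libraries: the nuclear one was -0.54 without replicate 1 and -0.060 without replicate 2 of D0, and -0.11 without replicate 1 of D2. The mitochondrial one was 0.087 and 0.56 without replicates 1 and 2 of D0, and 0.60 and 0.074 without replicates 1 and 2 of D2. In both groups replicate 2 lay above replicate 1 for 73 of 81 nuclear members, with a median of 0.44 at D0 and 0.45 at D2. The mitochondrial medians of this difference were 0.50 and 0.51. An omission therefore also leaves the replicate numbers unbalanced between D2 and D0.

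At D4, 2 of 94 members fell and 0 rose against D0, where 3.39% of all genes passed (2.29% lower). Both are complex IV genes. Cox6a1, the broadly expressed isoform of subunit VIa, had 265 and 414 TPM at D4, against 708 and 844 TPM at D0, a log2 difference of -1.22 (SE 0.24, limma adjusted p = 0.0166). Cox6b2, described as the testis isoform of subunit VIb, had 12.002 and 21.1 TPM at D4, against 51.5 and 87.5 TPM at D0, a log2 difference of -2.01 (SE 0.49, limma adjusted p = 0.0453). In both genes every D4 library lay below every D0 library.

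At D4 the 2 genomes leaned the same way as at D2. Of 81 nuclear members 77 had a negative difference (median -0.46), and all 13 mitochondrial members a positive one (median 0.45), beside a median of -0.06 over all genes. Without replicates 1 and 2 of D0 the nuclear median was -0.71 and -0.24 and the mitochondrial one 0.25 and 0.72, and without replicates 1 and 2 of D4 the nuclear median was -0.17 and -0.81. Nuclear medians by complex were -0.35 for complex I, -0.61 for II, -0.66 for III, -0.51 for IV and -0.45 for V. The D4 libraries lay entirely below the D0 libraries for 34 nuclear members, 42.0% of them where 25.9% of all genes did so, and entirely above for 9 mitochondrial members, where 16.3% of all genes did. mt-Nd4, a membrane subunit of complex I named after its values were seen, had the largest positive mitochondrial difference, with 403 and 561 TPM at D4 and 216 and 313 TPM at D0 (log2 difference 0.87, SE 0.35, limma adjusted p = 0.255). Its groups did not overlap, yet it did not pass.

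The 2 calls at D4 were lost in most omissions of 1 library, each of which leaves 1 library in a group. Leaving out either D0 library or replicate 1 of D4 left 0 calls, and leaving out replicate 2 of D4 left 1. With the replicate number as a block, 4 members fell and 0 rose. With the sequencing date as a covariate, 12 fell and 0 rose.

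At D10, 1 member rose and 1 fell (2 of 94, where 7.39% of all genes passed, 3.05% higher and 4.34% lower). Cox6b2 had 4.09 and 14.8 TPM at D10, against 51.5 and 87.5 TPM at D0, a log2 difference of -2.93 (SE 0.49, limma adjusted p = 0.00428). Cox8b, the heart and muscle isoform of subunit VIII, had 1.06 and 3.08 TPM at D10 and was listed at 0 in both D0 libraries (limma adjusted p = 0.0203). Its difference of 1.54 on the log2(TPM + 1) scale depends on the pseudocount and gives no fold. No D0 library helped Cox8b to reach the level tested, so the call is not independent of that filter.

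The call on Cox6b2 held without any one of the 4 libraries (adjusted p 0.00209 to 0.0465), and that on Cox8b held only without replicate 1 of D10 (0.00863 to 0.145). Leaving out replicate 1 of D10 gave 3 calls, and leaving out replicate 2 of D10 or either D0 library gave 1. Under the replicate block 1 member rose and 4 fell, and with the sequencing date as a covariate 1 rose and 12 fell. Over all genes tested 2009 passed with the block and 1656 with the date, against 1512 in the main fit.

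The nuclear lean at D10 differed between replicates. Over 81 nuclear members the median was -0.24 with 65 negative, but by replicate number it was -0.01 for replicate 1 and -0.49 for replicate 2. All 13 mitochondrial members had a positive difference, with a median of 0.41 (0.58 and 0.21 by replicate number). Without replicates 1 and 2 of D0 the nuclear median was -0.49 and -0.019 and the mitochondrial one 0.21 and 0.72. The D10 libraries lay below both D0 libraries for 31 nuclear members, 38.3% of them where 27.3% of all genes did so, and above both for 9 mitochondrial members, where 18.5% of all genes did. The replicate 1 libraries of D10 and D0 were sequenced on different dates.

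Of 13 cell cycle markers, 13 fell at D4 and at D10, with summed levels of 670.1 and 834 TPM at D0, 412 and 713 TPM at D2, 97.3 and 74.8 TPM at D4 and 68.4 and 37.8 TPM at D10. Of the hair cell markers 10 of 13 rose at D4 and 12 of 13 at D10. The mesenchyme markers, of which 1 of 9 tested fell at D4 and at D10, summed to 1016 and 1537 TPM at D0, 780.5 and 1271 TPM at D2, 545 and 669.7 TPM at D4 and 512 and 449.6 TPM at D10. The part of these shifts in the values of the members was not tested.

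**Figure D3:**
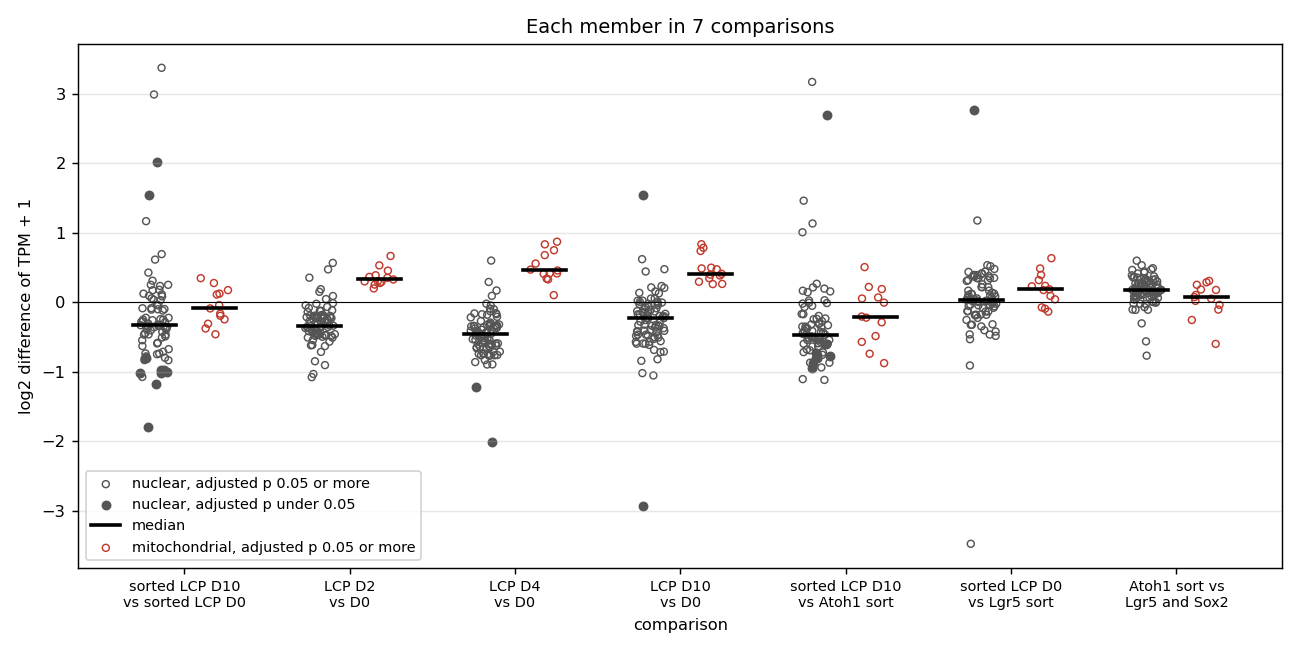
Log2 difference of TPM + 1 for each member (points) in 7 comparisons, nuclear members in grey and mitochondrial members in red. Filled points have a limma adjusted p under 0.05 and bars are medians. The medians of the 2 sets stand on opposite sides of 0 in the 3 comparisons of unsorted LCP with D0 (-0.34 and 0.33 at D2), and no mitochondrial point is filled.

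Sorted LCP D10 was then compared with sorted LCP D0. Here 2 members rose and 9 fell, 11 of 94, where 24.0% of all genes passed (13.3% higher and 10.7% lower). The median difference of all members was -0.29, with -0.33 for the nuclear and -0.09 for the mitochondrial members, beside 0.02 for all genes. The 9 that fell are no larger a share than the 10.7% of all genes that fell, so this count does not set the members apart. They were Ndufb6, Ndufs8 and Ndufs4 of complex I, Sdhb of II, Uqcrb of III, Cox6b2, Cox6c and Cox7a2l of IV, and Atp5d of V.

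Ndufs8, a core iron-sulfur subunit of complex I, was singled out after its values were seen. It had 62.0 and 61.8 TPM in sorted LCP D10, against 121 and 131 TPM in sorted LCP D0, a log2 difference of -1.01 (SE 0.22, limma adjusted p = 0.00695). The call held under each of the 13 alternative settings run, including the omission of each library. Sdhb, the iron-sulfur subunit of complex II, had 97.5 and 103 TPM in sorted LCP D10, against 188 and 222 TPM in sorted LCP D0 (log2 difference -1.02, SE 0.23, limma adjusted p = 0.00799). Ndufb6, an accessory membrane-arm subunit whose exons overlap Smim27 on the other strand, had 107 and 116 TPM in sorted LCP D10, against 196 and 263 TPM in sorted LCP D0 (log2 difference -1.03, SE 0.24, limma adjusted p = 0.00900). In each of the 3 genes all D10 values lay below all D0 values.

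Cox6b2 had 23.0 and 25.2 TPM in sorted LCP D10, against 89.3 and 83.9 TPM in sorted LCP D0 (log2 difference -1.80, SE 0.49, limma adjusted p = 0.0187). This call was lost whichever library was left out. Cox6c had 225 and 310.1 TPM in sorted LCP D10, against 537 and 666 TPM in sorted LCP D0 (log2 difference -1.17, SE 0.27, limma adjusted p = 0.00867). Its near copy Cox6c2 gave a like value of -1.26 (SE 0.31, limma adjusted p = 0.0111), with 1157 and 1547 TPM in sorted LCP D10 against 2916 and 3517 TPM in sorted LCP D0. Reads of the 2 cannot be assigned with certainty, so the call belongs to the pair. Among the 9 that fell, the smallest changes were those of Atp5d, the delta subunit of ATP synthase (-0.80, SE 0.20, limma adjusted p = 0.0144), and Cox7a2l, a factor of supercomplex assembly (-0.80, SE 0.23, limma adjusted p = 0.0258).

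Of the 2 that rose, Ndufv3, an accessory subunit of complex I, had 356 and 438 TPM in sorted LCP D10, against 122 and 149 TPM in sorted LCP D0 (log2 difference 1.54, SE 0.43, limma adjusted p = 0.0210). The call on Ndufv3 was lost whichever library was left out. Cox8b had 3.11 and 2.99 TPM in sorted LCP D10 and was listed at 0 in both libraries of sorted LCP D0 (limma adjusted p = 0.00177). The difference of 2.02 (SE 0.35) on the log2(TPM + 1) scale gives no fold. Cox8b passed under each alternative that tested it, and a filter of 5 TPM removed it. It reached the level tested with its D10 values and without any D0 library, so the call is not independent of that filter.

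The number of calls in this comparison changed with each omission of 1 library, which leaves 1 library in a group. There were 8 without replicate 1 and 4 without replicate 2 of sorted LCP D0, and 2 without replicate 1 and 9 without replicate 2 of sorted LCP D10. Under the replicate block 4 members rose and 19 fell, where 5831 of all genes tested passed, against 4911 in the main fit. Beyond the calls, the D10 libraries lay entirely below the D0 libraries for 45 nuclear members, 55.6% of them where 28.8% of all genes did so, and entirely above for 12 (14.8%), where 31.6% of all genes did. Without replicate 2 of sorted LCP D0 the nuclear median was -0.20. By replicate number it was -0.28 and -0.33, and the mitochondrial median -0.51 and 0.33, so the mitochondrial set had no stable direction.

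Over the same contrast all 13 hair cell markers rose and all 13 cell cycle markers fell, and the cell cycle markers summed to 36.9 and 32.7 TPM in sorted LCP D10, against 727 and 878 TPM in sorted LCP D0. The mesenchyme markers, 3 of 9 of which fell, summed to 65.8 and 49.5 TPM in sorted LCP D10, against 1620.0 and 661 TPM in sorted LCP D0, where Col3a1 was listed at 0. The part of these other cells in the values was not tested.

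NRF1 and GABPA are transcription factors known to regulate respiratory genes. Windows of 300 bases around the annotated start were found for 65 of 81 nuclear members in RefSeq (GRCm38.p6), each with 250 bases before and 50 after the start. A search of both strands for the NRF1 motif, whose letters are the capitals in the Cox6a1 window below, and for ACCGGAAG, an ETS motif bound by GABPA, matched 5 and 6 of these genes. They were 7.69% and 9.23% of the members, beside 2.16% and 5.00% of the 10925 tested protein-coding genes with a window (1.07% and 2.60% of all 27025 genes in the table). The NRF1 motif stood in Atp5g2, Atp5k, Cox6a1, Ndufa11 and Uqcrc1, and the ETS letters in Atp5e, Ndufb6, Ndufs3, Ndufs8, Sdhb and Sdhd. No member held both motifs, and a match describes letters only. Cox6a1 is shown because it fell at D4, Ndufs8 and Sdhb because they fell in sorted D10 cells and Cox6b2 because it fell in 3 comparisons and holds neither motif. Capitals mark the NRF1 letters in Cox6a1 and the ETS letters, on either strand, in Ndufs8 and Sdhb.
Cox6a1 (chr5:115348909-115349208, minus strand): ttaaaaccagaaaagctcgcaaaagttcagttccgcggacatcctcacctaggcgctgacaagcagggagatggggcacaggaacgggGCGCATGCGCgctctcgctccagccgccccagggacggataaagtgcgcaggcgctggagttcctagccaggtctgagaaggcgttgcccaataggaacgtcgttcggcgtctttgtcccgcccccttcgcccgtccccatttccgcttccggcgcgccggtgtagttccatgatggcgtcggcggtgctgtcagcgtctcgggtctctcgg
Ndufs8 (chr19:3912725-3913024, minus strand): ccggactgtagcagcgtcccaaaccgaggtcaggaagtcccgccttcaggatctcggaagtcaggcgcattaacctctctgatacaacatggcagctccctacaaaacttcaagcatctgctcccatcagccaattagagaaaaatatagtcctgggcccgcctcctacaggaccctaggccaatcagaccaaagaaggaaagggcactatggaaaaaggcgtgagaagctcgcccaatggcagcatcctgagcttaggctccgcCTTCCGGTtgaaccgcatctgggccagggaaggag
Sdhb (chr4:140961021-140961320, plus strand): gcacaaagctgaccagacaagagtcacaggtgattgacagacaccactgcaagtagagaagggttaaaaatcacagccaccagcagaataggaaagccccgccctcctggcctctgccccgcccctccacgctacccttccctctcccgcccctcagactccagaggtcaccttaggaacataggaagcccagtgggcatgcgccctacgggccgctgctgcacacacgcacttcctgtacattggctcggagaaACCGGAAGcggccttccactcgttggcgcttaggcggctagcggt
Cox6b2 (chr7:4753045-4753344, minus strand): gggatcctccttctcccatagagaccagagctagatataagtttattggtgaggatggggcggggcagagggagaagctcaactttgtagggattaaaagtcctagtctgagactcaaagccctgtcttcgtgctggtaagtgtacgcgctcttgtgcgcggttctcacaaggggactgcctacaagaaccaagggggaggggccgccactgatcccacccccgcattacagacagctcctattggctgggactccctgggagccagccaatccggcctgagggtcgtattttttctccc
The first capital letter lies 162 bases before the annotated start in Cox6a1, and 15 and 5 bases after it in Ndufs8 and Sdhb.

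Sorted LCP D10 was set against the Atoh1 sort, the cultured against the native cells rich in hair cell transcripts. Of 94 members 1 rose and 7 fell, where 11.8% of all genes passed (4.51% higher and 7.34% lower). The 7 that fell are about the same share as the 7.34% of all genes that fell, and the 1 that rose is a smaller share than 4.51%. These counts therefore do not set the members apart. Nuclear members had a median of -0.47 and mitochondrial members one of -0.21, beside -0.11 for all genes. The nuclear median was alike in both replicates (-0.47 and -0.45), and the mitochondrial one was -0.41 and 0.24. All libraries of sorted LCP D10 lay below both Atoh1 libraries for 57 nuclear members, 70.4% of them where 36.0% of all genes did so.

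The 7 that fell were Ndufv1, Ndufs1, Ndufs3 and Ndufa9 of complex I, Sdhb of complex II and Atp5a1 and Atp5b of complex V. Ndufv1, a core subunit that binds NADH, had 136 and 114 TPM in sorted LCP D10, against 205 and 223 TPM in the Atoh1 sort (log2 difference -0.78, SE 0.23, limma adjusted p = 0.0458). Ndufs1, the largest iron-sulfur subunit, had 110.1 and 70.8 TPM in sorted LCP D10, against 161 and 183 TPM in the Atoh1 sort (-0.95, SE 0.27, limma adjusted p = 0.0428). Ndufs3 had 150.4 and 138 TPM in sorted LCP D10, against 225 and 215 TPM in the Atoh1 sort (-0.60, SE 0.18, limma adjusted p = 0.0463). Ndufs1 shares exon sequence with Eef1b2 on the other strand, which reached 345 TPM, and Ndufs3 with Kbtbd4.

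The accessory subunit Ndufa9 fell as well, with 51.8 and 49.2 TPM in sorted LCP D10, against 82.2 and 89.7 TPM in the Atoh1 sort (-0.76, SE 0.22, limma adjusted p = 0.0457). Atp5b, the beta subunit of ATP synthase, had 1608 and 1329.8 TPM in sorted LCP D10, against 2612 and 2736 TPM in the Atoh1 sort (-0.87, SE 0.21, limma adjusted p = 0.0190), and Atp5a1, the alpha subunit, had 429 and 355 TPM in sorted LCP D10, against 661 and 636 TPM in the Atoh1 sort (-0.73, SE 0.21, limma adjusted p = 0.0457). Sdhb had 97.5 and 103 TPM in sorted LCP D10, against 170.3 and 183 TPM in the Atoh1 sort (-0.81, SE 0.23, limma adjusted p = 0.0414). The groups did not overlap in any of these 7 genes.

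The member that rose was Cox7a1, the heart and muscle isoform of subunit VIIa, with 39.5 and 80.7 TPM in sorted LCP D10, against 9.59 and 6.42 TPM in the Atoh1 sort (log2 difference 2.70, SE 0.66, limma adjusted p = 0.0214). These calls lay close to the threshold. Leaving out either Atoh1 library or replicate 2 of sorted LCP D10 left 0, and leaving out replicate 1 of sorted LCP D10 left 3. Rescaling the libraries without mitochondrial genes left 1 higher and 2 lower, quantile normalization 2 higher and 3 lower, the replicate block 3 higher and 15 lower, and the sequencing date as a covariate 3 higher and 27 lower. Over all genes tested these settings gave 2417, 2511, 3289 and 3679 calls in that order, against 2424 in the main fit.

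Markers of other cells differed in this comparison. The erythroid markers, 4 of 5 of which fell, summed to 0.712 and 0.352 TPM in sorted LCP D10, where the globin genes Hbb-bs, Hba-a1 and Hbb-bt were listed at 0, against 193 and 281 TPM in the Atoh1 sort. Of 9 mesenchyme markers 4 fell, with 65.8 and 49.5 TPM in sorted LCP D10, against 276 and 174 TPM in the Atoh1 sort. Of 14 supporting cell markers 6 fell, led by Hes5 (-7.00) and Fabp7 (-6.81), and S100a1 rose (2.90), while their sum was 6478 and 7573 TPM in sorted LCP D10, against 2341 and 1366 TPM in the Atoh1 sort. Of 10 neuron markers 2 fell, and of 7 glia markers 2. Their part in the result was not tested.

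Sorted LCP D0 against the Lgr5 sort gave 1 called member of 94, where 11.0% of all genes passed (3.85% higher). It was Cox6b2, which rose, with 89.3 and 83.9 TPM in sorted LCP D0, against 14.05 and 10.0 TPM in the Lgr5 sort (log2 difference 2.77, SE 0.49, limma adjusted p = 0.00320). The call held without any one of the 4 libraries (adjusted p 0.0137 to 0.0366). The medians were 0.03 for nuclear and 0.18 for mitochondrial members, beside -0.09 for all genes. The mitochondrial median was 0.67 and -0.14 by replicate number. In this comparison all 13 cell cycle markers were higher in sorted LCP D0 and 11 of 13 hair cell markers lower, and their part was not tested.

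Native cells gave no called member. When the Atoh1 sort was set against both supporting cell sorts together, 0 of 94 passed limma's threshold where 0.821% of all genes did. Of the members 3 had an unadjusted p under 0.05, where 2448 of the 20463 genes did. Nuclear members had a median of 0.17 with 68 of 81 positive, beside 0.03 for all genes, and mitochondrial members one of 0.07. The Atoh1 libraries lay above all 4 others for 18 nuclear members, 22.2% of them where 14.8% of all genes did so. By replicate number the nuclear median was 0.24 and 0.09 and the mitochondrial median 0.45 and -0.32. Ndufs1 had the highest difference, with 161 and 183 TPM in the Atoh1 sort, against 106 and 124 TPM in the Lgr5 sort and 125 and 100.2 TPM in the Sox2 sort (log2 difference 0.60, SE 0.24, limma adjusted p = 0.336).

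The Lgr5 sort against the Sox2 sort likewise gave 0 of 94, where 0.557% of all genes passed. Here 2 members had an unadjusted p under 0.05, where 1340 of the 20463 genes did. All 13 mitochondrial members had a negative difference, beside a nuclear median of 0.05 (-0.11 and 0.23 by replicate number). The mitochondrial median was -0.52, and -0.55 and -0.57 by replicate number. Without replicates 1 and 2 of the Lgr5 sort it was -0.30 and -0.75, and without replicates 1 and 2 of the Sox2 sort -0.87 and -0.25. For 8 of the 13 the Lgr5 libraries lay entirely below the Sox2 libraries, where 19.6% of all genes did so. mt-Atp8 had 20431 and 23548 TPM in the Lgr5 sort, against 27108 and 33183 TPM in the Sox2 sort, with no overlap between the sorts. Of 7 glia markers 5 fell, and the list summed to 567 and 239 TPM in the Lgr5 sort, against 659.6 and 967 TPM in the Sox2 sort. Of 10 neuron markers 2 fell (Nefh and Gap43), and these summed to 439 and 326 TPM in the Lgr5 sort, against 538 and 429 TPM in the Sox2 sort. The part of either in the mitochondrial values was not tested.

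Sorted LCP D10 against unsorted LCP D10 gave 0 of 94, where 6.22% of all genes passed, with medians of 0.11 (nuclear) and 0.18 (mitochondrial). An unadjusted p under 0.05 was found for 1 member, and for 4847 of the 20463 genes. Under the replicate block 1 member rose, where 2434 of all genes tested passed, against 1273 in the main fit. Sorted LCP D0 against unsorted LCP D0 gave 0 of 94, where 0.0782% of all genes passed, with medians of 0.23 and 0.69 beside -0.12 for all genes. In this comparison 7 members had an unadjusted p under 0.05, where 1948 of the 20463 genes did. Its mitochondrial median was 1.16 for replicate 1 and 0.11 for replicate 2. The replicate 1 libraries of sorted and unsorted LCP D0 were sequenced on different dates.

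The change to D10 was also compared between sorted and unsorted cultures, as the sorted minus the unsorted difference. By limma 0 of 94 members passed, where 0.205% of all genes did. An unadjusted p under 0.05 was found for 2 members, and for 2267 of the 20463 genes. All 13 mitochondrial members had a negative value (median -0.52), beside a nuclear median of -0.04 and a median of 0.18 for all genes. By replicate number the mitochondrial median was -1.14 and 0.12, so the opposite lean of the 2 genomes in unsorted cultures was not shown to be absent from sorted ones. The replicate 1 value also spans the different sequencing dates of unsorted LCP D10 and D0.

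Several subunits have isoform genes of tissue-restricted expression. Cox6b2 held 5.06 and 3.74% of the summed Cox6b1 and Cox6b2 level in sorted LCP D0 and 5.23 and 4.06% in unsorted LCP D0, and 0.338 to 3.98% in all other libraries. Its gene lies at chr7:4751792-4753094 on the minus strand (mm10). Cox6b1, the broadly expressed isoform, had 1229 and 1538 TPM in sorted LCP D10, against 1676 and 2161 TPM in sorted LCP D0 (log2 difference -0.47, SE 0.48, limma adjusted p = 0.522). Cox6b2 in native cells had 15.9 and 8.27 TPM in the Atoh1 sort, 14.05 and 10.0 TPM in the Lgr5 sort and 12.6 and 13.8 TPM in the Sox2 sort, all below the lowest D0 culture value of 51.5 TPM.

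Cox7a1 lay above every native library in unsorted cultures at D0, D2 and D4. Cox7a1 had 158 and 86.1 TPM at D0, 164 and 93.9 TPM at D2, 53.5 and 90.4 TPM at D4 and 26.5 and 116 TPM at D10 of unsorted cultures, and 4.71 to 26.4 TPM in the 6 native libraries. As a share of Cox7a1 and Cox7a2 it took 17.97 and 26.8% in sorted LCP D10, against 3.70 and 2.51% in the Atoh1 sort. Cox8b stayed a small part of subunit VIII in every library, with at most 0.449% of the Cox8a and Cox8b level.

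The replicates of the late unsorted cultures differed widely in a pair of isoform genes. Ndufa4l2, a paralog of Ndufa4 known to be induced in low oxygen, had 1.73 TPM in replicate 1 and 27.4 TPM in replicate 2 of LCP D4, and 0.891 and 42.9 TPM in LCP D10. Cox4i2, the lung isoform of subunit IV, which also responds to oxygen, had 3.70 and 35.6 TPM in LCP D4 and 0.335 and 38.1 TPM in LCP D10. These were the widest replicate differences of any member, 4.87 for Cox4i2 and 4.54 for Ndufa4l2 on the log2(TPM + 1) scale at D10, followed by Cox7b with 2.09 at D4.

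In sorted cultures the same genes were low at D0. Ndufa4l2 had 11.6 and 23.3 TPM in sorted LCP D10, against 1.45 and 0.166 TPM in sorted LCP D0 (log2 difference 3.37, SE 1.28, limma adjusted p = 0.0762), and Cox4i2 had 9.39 and 27.7 TPM in sorted LCP D10, against 2.27 and 0.450 TPM in sorted LCP D0 (2.99, SE 1.29, limma adjusted p = 0.115). Neither passed, although neither pair of groups overlapped. In native cells Ndufa4l2 ran from 0.0781 to 1.52 TPM and Cox4i2 from 11.2 to 26.2 TPM. Ndufa4l2 overlaps exons of Shmt2 on the other strand, which reached 47.4 TPM.

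**Figure D4:**
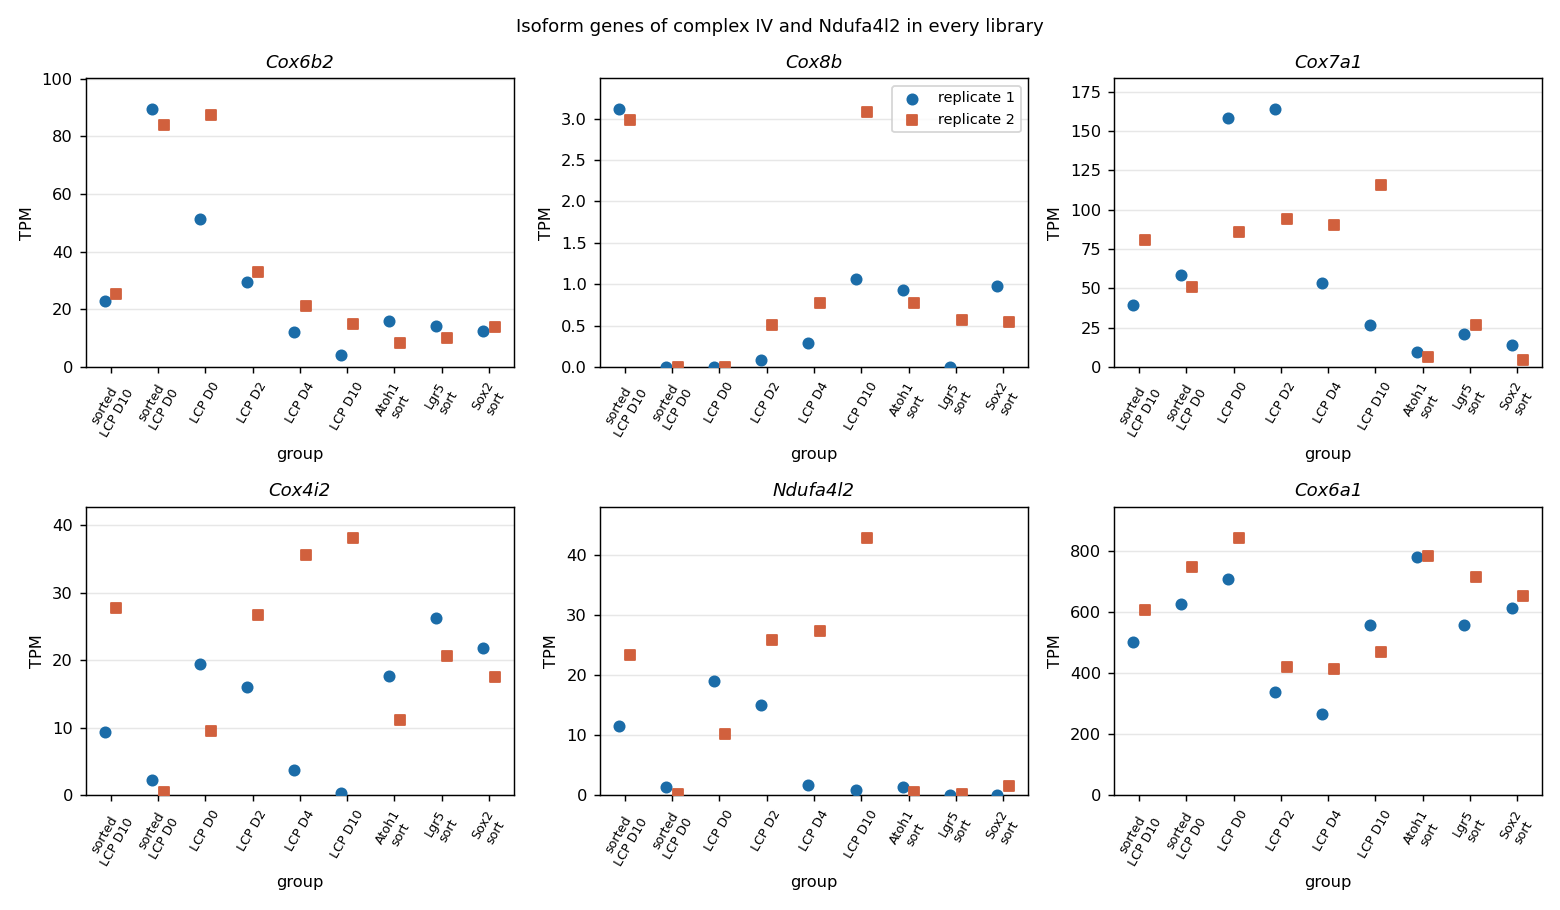
TPM of 6 genes in every library, with circles for replicate 1 and squares for replicate 2. Cox6b2 is highest in the sorted and unsorted D0 cultures (51.5 to 89.3 TPM), Cox8b is listed at 0 there, and the replicates of LCP D10 differ in Ndufa4l2 (0.891 and 42.9 TPM) and Cox4i2 (0.335 and 38.1 TPM).

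Glycolysis makes ATP in the cytosol. The 27 glycolysis genes summed to 7425 TPM in replicate 1 and 12581 TPM in replicate 2 of LCP D4, and to 6414 and 15197 TPM in LCP D10. At D0 the sum was 13102 and 11043 TPM. No glycolysis gene passed at D2, D4 or D10. In sorted LCP D10 the sum was 16149.8 and 16040.2 TPM, against 5391 and 5192 TPM in sorted LCP D0, and 13 of 27 genes rose and 0 fell (median 1.18), where 13.3% of all genes rose and 10.7% fell. Eno2 (log2 difference 5.34), Slc16a3 (5.13), Pfkp (3.64) and Aldoa (3.17) were the highest of these. Pkm had 1324 and 989 TPM in sorted LCP D10, against 476 and 350.2 TPM in sorted LCP D0 (1.48, SE 0.46, limma adjusted p = 0.0368). Ldha, which makes lactate, had 1017 and 910.4 TPM in sorted LCP D10, against 351 and 439.6 TPM in sorted LCP D0 (1.29, SE 0.55, limma adjusted p = 0.113), and Hk2 did not pass either (0.22).

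Against the Atoh1 sort, where the glycolysis sum was 4729.5 and 4049 TPM, 15 of 27 genes were higher in sorted LCP D10 and 1 was lower (median 2.03), where 4.51% of all genes were higher and 7.34% lower. Hk2 had 11.8 and 16.8 TPM in sorted LCP D10, against 1.29 and 1.22 TPM in the Atoh1 sort (log2 difference 2.74, SE 0.50, limma adjusted p = 0.00513). Ldha rose by 2.47 (limma adjusted p = 0.0139) and Pkm by 2.03 (limma adjusted p = 0.0156) on the log2 scale. The gene that fell was Pgam2, the muscle form of phosphoglycerate mutase, with 2.90 and 2.78 TPM in sorted LCP D10, against 289.6 and 343 TPM in the Atoh1 sort (-6.36, SE 0.42, limma adjusted p = 6.27e-06).

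The tricarboxylic acid cycle feeds complexes I and II with electrons. In sorted LCP D10 against the Atoh1 sort, 8 of its 17 genes fell and 0 rose (median -0.93), where 7.34% of all genes fell. Cs, citrate synthase, had 36.3 and 29.3 TPM in sorted LCP D10, against 86.6 and 90.5 TPM in the Atoh1 sort (log2 difference -1.41, SE 0.27, limma adjusted p = 0.00653). Against sorted LCP D0, 4 of 17 fell and 0 rose, where 10.7% of all genes fell, with Idh2 at 44.3 and 37.2 TPM in sorted LCP D10, against 191 and 163 TPM in sorted LCP D0 (-2.09, SE 0.35, limma adjusted p = 0.00146). In unsorted cultures Fh1 alone passed, at D10. Among native cells Sucla2 rose in the Atoh1 sort, which had 173 and 121 TPM, against 51.8 and 54.7 TPM in the Lgr5 sort and 50.0 and 42.0 TPM in the Sox2 sort (1.53, SE 0.30, limma adjusted p = 0.0384).

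Among 23 electron carrier and exchange genes, Etfa, which passes electrons from fatty acid oxidation to ubiquinone, fell in 5 of the comparisons. It had 218 and 211 TPM at D0, 139.8 and 136 TPM at D2, 115 and 122 TPM at D4 and 115 and 117 TPM at D10 of unsorted cultures. The D4 and D10 differences passed (-0.85 with limma adjusted p = 0.0115 and -0.88 with limma adjusted p = 0.00582). In sorted cultures it had 78.5 and 72.4 TPM at D10, against 200.2 and 177 TPM at D0 (-1.31, limma adjusted p = 0.000230), and against the Atoh1 sort it fell by 1.21 (limma adjusted p = 0.000584). It was also lower in sorted than in unsorted LCP D10. Cycs, cytochrome c, passed in none of the comparisons, with 14.7 and 15.2 TPM in sorted LCP D10, against 27.4 and 34.9 TPM in the Atoh1 sort (-0.997, SE 0.32, limma adjusted p = 0.0639).

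Of 48 assembly factors, 4 rose and 5 fell in sorted LCP D10 against sorted LCP D0, where 24.0% of all genes passed. Against the Atoh1 sort 1 rose and 7 fell, where 11.8% of all genes passed. Sco2, a copper chaperone of complex IV, had 17.4 and 16.9 TPM in sorted LCP D10, against 3.10 and 1.43 TPM in sorted LCP D0 (log2 difference 2.52, SE 0.37, limma adjusted p = 0.000726), and it also rose in unsorted LCP D10 against D0 (1.44, limma adjusted p = 0.0372). Ndufaf4, a complex I assembly factor, fell to 6.65 and 6.16 TPM in sorted LCP D10, against 29.5 and 25.5 TPM in sorted LCP D0 (-1.94, SE 0.33, limma adjusted p = 0.00172).

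Of 19 genes that maintain and transcribe mitochondrial DNA, 2 rose and 2 fell in sorted LCP D10 against sorted LCP D0, with a median of -0.62, where 24.0% of all genes passed, so the count does not set the list apart. Tfam, which packages mitochondrial DNA and starts its transcription, had 23.7 and 26.0 TPM in sorted LCP D10, against 50.9 and 71.4 TPM in sorted LCP D0 (log2 difference -1.25, SE 0.26, limma adjusted p = 0.00490). In unsorted LCP D10 it had 37.9 and 34.2 TPM, against 100.0 and 60.1 TPM at D0 (-1.09, SE 0.26, limma adjusted p = 0.0262), while all 13 mitochondrial members had positive differences there. Polrmt, the mitochondrial RNA polymerase, did not pass in these 2 comparisons (-0.62 and -0.71). Of 14 biogenesis regulators, 3 passed in 1 comparison each. Esrra fell at D4 against D0 (-1.76, limma adjusted p = 0.0420), Sirt3 rose in sorted LCP D10 against sorted LCP D0 (1.26, limma adjusted p = 0.00580), and Esrrg fell in sorted LCP D10 against the Atoh1 sort (-1.17, limma adjusted p = 0.0197). Ppargc1a, a coactivator of such genes, had 0.712 and 1.70 TPM in sorted LCP D10, against 8.19 and 2.61 TPM in sorted LCP D0 and did not pass (limma adjusted p = 0.0697).

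Of 78 mitochondrial ribosomal protein genes 2 rose and 19 fell in sorted LCP D10 against sorted LCP D0 (median -0.53), where 13.3% of all genes rose and 10.7% fell. Of 79 cytosolic ribosomal protein genes 60 fell and 0 rose (median -1.06), with sums of 15702 and 19825 TPM in sorted LCP D10, against 35441 and 42114 TPM in sorted LCP D0. Many of these genes have near-identical copies, so single values are uncertain. Against the Atoh1 sort, 0 of the 79 cytosolic genes passed, while 1 of 78 mitochondrial ribosomal genes rose and 8 fell, where 4.51% of all genes rose and 7.34% fell.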

How the data were processed

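RNA of 18 libraries was read in single-end reads of 75 bases, from low-input kits that do not mark the strand, per the labels' protocols. The authors deposited gene levels in TPM. The submitters' processing notes name STAR, Salmon, DESeq2, FastQC and mm10, without roles or versions, and the sources used here do not give the annotation. Identifiers were named from GENCODE M21 (GRCm38, the build of mm10), with 419 left without a name. TPM keeps no depth, so no counting interval is given.

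Genes that reached 1 TPM in 2 or more libraries were tested on log2(TPM + 1) with limma 3.58.1 (R 4.3.3, trend, 9 group means, 9 residual degrees of freedom) and Benjamini-Hochberg adjustment over 20463 genes, in 11 comparisons. The procedure was tested on simulated data with independent libraries and no shift by sequencing date or replicate number, so the simulation does not cover such shifts. Promoter windows are RefSeq's. Tables and plots were made with pandas 2.3.3 and matplotlib 3.10.9.

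The members and lists were chosen with earlier results of these data known. Named genes are the 2 highest nuclear members of each complex, the 2 highest and lowest mitochondrial ones, every called member (the 4 highest and 4 lowest where over 8 passed), the isoform genes, up to 4 called genes of each pathway list, and 8 fixed regulators and metabolic genes, of which Esrrb was below the level tested. All replicate 2 libraries share 1 sequencing date in the labels, and 6 of 9 replicate 1 libraries another. The numbers were therefore paired in the medians by replicate number and in the replicate block. The main fit, which gave the calls, did not use this pairing. Over 36 pairs of same-numbered libraries, deviations from group means correlated at -0.0187 to 0.483 over all genes tested (median 0.103), with 18 over 0.1. Over the members alone they correlated at -0.409 to 0.815 (median 0.237), with 21 over 0.1. For all genes the value was 0.483 between LCP D2 and D0 and 0.411 between LCP D4 and D0. Extraction dates that contradict the sequencing dates were not used, nor was a protocol for tamoxifen and beta-catenin that matches no sample title.

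Alternatives were rescaling without mitochondrial genes, quantile normalization, another pseudocount or filter, a replicate block, sequencing date as a covariate, the compared groups alone and the omission of each library. The ratio without mt-Atp8 was chosen after seeing the data.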

Additional observations from a re-analysis of the deposited data

How the results depend on the processing

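No called member reversed under any alternative run, and of 24 gene calls 4 held in every omission of a library and 2 in every alternative that tested them (Ndufs8 and Cox8b in sorted LCP D10 against sorted LCP D0). Cox8b was listed at 0 in all D0 libraries and reached the level tested with its D10 values. Its call is therefore not independent of that filter, and a filter of 5 TPM removed the gene. The causes of the changes below were not tested. With the replicate block, 4 members passed at LCP D4 and 5 at D10 against D0, 23 in sorted LCP D10 against sorted LCP D0, 18 against the Atoh1 sort and 1 against unsorted LCP D10, and it changed the member count in no other comparison. The count over all genes rose as well, from 693 to 994 at D4 and from 1512 to 2009 at D10. In sorted LCP D10 it rose from 4911 to 5831 against sorted LCP D0 and from 2424 to 3289 against the Atoh1 sort. Against unsorted LCP D10 it rose from 1273 to 2434. With sequencing date as a covariate the member counts in these comparisons were 12, 13, 27, 30 and 2, with 2 in sorted LCP D0 against the Lgr5 sort. Over all genes tested they were 1148, 1656, 6252, 3679 and 2674, with 2932 against the Lgr5 sort. The nuclear median of sorted against unsorted LCP D0 was 0.018 with this covariate. Fitting the compared groups alone, with fewer residual degrees of freedom, left 0 at D4, 0 at D10, 4 in sorted LCP D10 against sorted LCP D0, 0 against the Atoh1 sort and 0 in sorted LCP D0 against the Lgr5 sort. Over all genes tested this fit left 0, 0, 2032, 963 and 0 calls in the same order. At D4, 1 passed under rescaling without mitochondrial genes, 1 under quantile normalization, 1 with a pseudocount of 0.1 and 1 with no filter. Over all genes tested 666, 598, 645 and 581 passed under these settings. Against the Atoh1 sort, 3 passed under rescaling and 5 under quantile normalization, with nuclear medians of -0.44 and -0.31. Under rescaling, the mitochondrial median was -0.57 in the Lgr5 against the Sox2 sort and 0.35 at D2. Quantile normalization gave -0.69 in the Lgr5 against the Sox2 sort, and nuclear medians of -0.30 at D2 and -0.24 in sorted LCP D10 against sorted LCP D0. It also moved the median of all genes to 0.00 in sorted against unsorted LCP D0 (-0.12 as deposited), to 0.03 in sorted LCP D0 against the Lgr5 sort (-0.09) and to -0.04 in the difference of changes (0.18), and the share of calls that were higher to 50.6% in sorted against unsorted LCP D10 (68.9%) and to 47.6% in sorted LCP D0 against the Lgr5 sort (35.1%). Without mt-Atp8 the D2 over D0 fold of the ratio was 1.64.

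Omitting each library in turn gave 0 to 1 calls at D4, 1 to 3 at D10, 2 to 9 in sorted LCP D10 against sorted LCP D0, 0 to 3 against the Atoh1 sort, 0 to 2 against unsorted LCP D10 and 0 to 1 in the difference of changes. Nuclear medians ran over -0.54 to -0.060 at D2, -0.81 to -0.17 at D4, -0.41 to -0.20 in sorted LCP D10 against sorted LCP D0, -0.53 to -0.40 against the Atoh1 sort, -0.051 to 0.41 in sorted against unsorted LCP D0, -0.15 to 0.22 in sorted LCP D0 against the Lgr5 sort, 0.067 to 0.30 in the Atoh1 sort against both others, -0.15 to 0.31 in the Lgr5 against the Sox2 sort and -0.24 to 0.21 in the difference of changes. Mitochondrial medians ran over 0.074 to 0.60 at D2, 0.25 to 0.72 at D4, 0.21 to 0.72 at D10, -0.065 to 0.36 in sorted against unsorted LCP D10 and -0.87 to -0.25 in the Lgr5 against the Sox2 sort. A group left with 1 library is assumed to vary like the others.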

Other observations

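The mitochondrial genome also encodes RNAs that are no members. One of them, mt-Ts1, a serine tRNA that overlaps mt-Co1 on the opposite strand, had 41411 and 51870 TPM in sorted LCP D10, against 27268 and 37654 TPM in sorted LCP D0. In unsorted cultures it had 10694 and 13343 TPM at D0, 16473 and 21345 TPM at D2, 23367 and 29826 TPM at D4 and 17812 and 29470 TPM at D10. Reads of mt-Ts1 and mt-Co1 cannot be told apart without strand. All 37 mitochondrial genes together took 9.09 and 10.9% of TPM in sorted LCP D10, against 9.18 and 8.84% in sorted LCP D0, and 4.27 and 6.01% at D0 of unsorted cultures.

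The median nuclear difference, replicate 2 minus replicate 1, was positive in each of the 9 groups. All replicate 2 libraries share 1 sequencing date, and the part of the date in this was not tested. The share over all genes was not computed for the counts that follow. Replicate 2 was above replicate 1 for 80 of 81 nuclear members in LCP D4, with a median difference of 0.56 on the log2 scale, for 73 in LCP D0 (0.44) and LCP D2 (0.45), and for 75 in the Lgr5 sort (0.43). The smallest median was that of LCP D10, with 0.03.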
